A study of Mus musculus with 9 samples.

Results

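Gene expression was compared between virus-specific memory CD8 and CD4 T cells from mouse spleen. The 6 libraries compared, of 9 in the series, were chosen by their titles: 3 titled CD8 control and 3 titled CD4 control. The mice had been infected with lymphocytic choriomeningitis virus (LCMV), strain Armstrong, and the cells were sorted on day 30. CD8 control cells bound a class I tetramer, H-2Db, loaded with the viral glycoprotein peptide GP33. CD4 control cells bound a class II tetramer, I-Ab, loaded with the peptide GP66. Mice of both groups carried no Ox40-Cre, and no age or strain was given in the labels. The other 3 libraries, CD4 ThpokAD, hold GP66-binding cells of mice with a Cre named for the Ox40 gene and with floxed Thpok alleles. They served to estimate the spread in the fit and were not a test group. The groups differ at once in lineage, peptide, tetramer class and sort, and what each contributes cannot be told apart. Whether each replicate is its own animal is not in the labels. The p-values then rest on the spread between these samples alone, and that spread may be technical.

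After an acute infection, most virus-specific T cells die and a small memory population stays. CD8 T cells see viral peptides on class I molecules and kill infected cells with granules that hold perforin and granzymes. CD4 T cells see peptides on class II molecules and act mostly as helpers, through cytokines, CD40 ligand and other TNF family ligands, either as Th1 cells that activate phagocytes or as follicular helper cells that support B cells. The choice between both lineages is made in the thymus by the transcription factors Thpok, which sets the CD4 lineage, and Runx3, which sets the CD8 lineage.

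Total counts were 16664474 to 18357021 in the CD4 control libraries and 19850495 to 38981516 in the CD8 control libraries. The deepest, CD8 control replicate 3, stood apart in its composition. Mitochondrial transcripts made up 1.08% of its counts, against 2.33% to 3.80% in the other 5, and ribosomal protein genes 1.47% against 2.63% to 3.02%. In a principal component analysis of the 6 libraries, the first component (50.1% of the variance) separated the groups, and the second (15.8%) set CD8 control replicate 2 apart from the other CD8 control libraries. Of 15738 genes that passed the filter on low counts, 808 (5.13%) were called higher in CD8 control and 1031 (6.55%) higher in CD4 control. A call is an adjusted p under 0.05 in edgeR's quasi-likelihood test with Benjamini-Hochberg adjustment. Together these are 1839 genes, or 11.7% of those tested, and for 1835 of them the values of both groups did not overlap. The same held for 5330 of all 15738 tested genes, so most genes without overlap were not called. The shares of 5.13% and 6.55% are those to set beside the counts by gene list below. At least 2-fold differences were called for 513 genes higher in CD8 control and 750 higher in CD4 control, and at least 10-fold differences for 79 and 219. Without CD4 control replicate 1, 2 or 3 the calls higher in CD8 control numbered 442, 421 and 527, and without CD8 control replicate 3 they numbered 492. The calls higher in CD4 control numbered 637 without CD4 control replicate 2. Of the called genes, 43.9% were higher in CD8 control. With library totals alone for scaling, 1140 were higher in CD8 control and 879 in CD4 control (56.5% higher in CD8 control), and the median log2 fold change of all genes moved from 0.01 to 0.12.

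**Figure D1:**
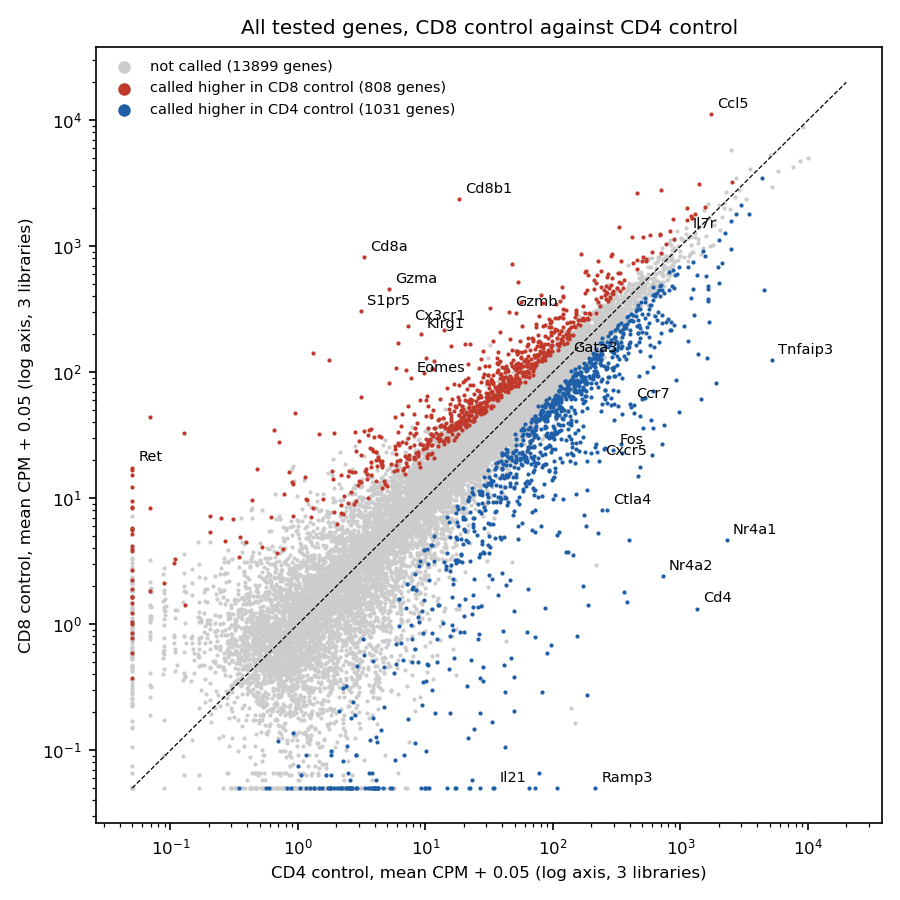
Mean level of each of the 15738 tested genes in CD4 control (horizontal axis) and CD8 control (vertical axis), in CPM (read counts scaled for library size) plus 0.05 on log axes, with 808 genes called higher in CD8 control in red and 1031 called higher in CD4 control in blue. Cd8a, Cd8b1, Gzma and S1pr5 lie far above the diagonal, Cd4, Nr4a1 and Nr4a2 far below it, and Il7r and Gata3 on it.

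The co-receptor genes matched the labels in every library. Levels are given throughout as CPM scaled by edgeR, in the order of replicates 1, 2 and 3. Cd4 (chr6:124864692-124888221, GRCm38), which encodes the receptor for class II molecules, was at 1359, 1409 and 1295 CPM in CD4 control against 2.26, 1.36 and 0.222 CPM in CD8 control. Cd8a (chr6:71373427-71379173), a chain of the receptor for class I molecules, was at 743, 785 and 913 CPM in CD8 control against 2.80, 2.74 and 4.20 CPM in CD4 control. Both groups held the other lineage's co-receptor near 0. The called differences among genes that every T cell uses were smaller than those of the co-receptors. Lck, the kinase that both co-receptors carry, was at 2198 ± 59.2 CPM in CD8 control and 2211 ± 104 CPM in CD4 control (mean ± SD, n = 3). Its log2 difference of -0.01 had a 95% interval of -0.17 to 0.16. Of 18 genes shared by T cells, 3 were called higher in CD8 control (against 5.13% of all genes) and 5 higher in CD4 control (against 6.55%). Of these differences, 2, in Cd28 and Cd5, were at least 2-fold. The 3 higher calls were all lost when CD4 control replicate 1, 2 or 3 was left out, and fell to 1 without CD8 control replicate 2 or 3. The 5 became 3 without CD4 control replicate 2 or CD8 control replicate 2.

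Factors of the lineage choice differed less than the co-receptors. Zbtb7b (chr3:89377644-89394776), which encodes Thpok, was at 38.5, 47.6 and 48.9 CPM in CD4 control against 24.0, 19.4 and 18.8 CPM in CD8 control. The groups did not overlap, and the level in CD8 control was not near 0. The difference was 2.17-fold (log2 -1.12, SE 0.21, adjusted p = 0.00972), a call lost with CD4 control replicate 2 or 3 left out (adjusted p = 0.0515 to 0.0516). Runx3 was at 293, 320.3 and 182 CPM in CD8 control against 196, 216 and 180.2 CPM in CD4 control, and replicate 3 of CD8 control lay within the CD4 control range. It was not called (adjusted p = 0.21, 95% interval of the log2 difference -0.02 to 0.88). A call appeared with CD8 control replicate 3 left out (adjusted p = 0.0183). Gata3, a factor of CD4 lineage choice in the thymus and of Th2 cells, was at 128 ± 23.0 CPM in CD8 control and 129.7 ± 18 CPM in CD4 control, with a 95% interval of -0.41 to 0.37 for the log2 difference. Tox, needed for CD4 lineage development, was 6.56-fold higher in CD4 control (adjusted p = 0.000396). In the list of 24 co-receptors and lineage factors, 3 were called higher in CD8 control and 13 higher in CD4 control.

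Among 24 tested granule and cytotoxicity genes, 10 were called higher in CD8 control and 6 higher in CD4 control, against 5.13% and 6.55% of all genes, and the median log2 difference was 0.35 against 0.01 for all genes. Gzma (chr13:113093825-113100981) was at 635, 248 and 482 CPM in CD8 control against 2.30, 7.83 and 5.19 CPM in CD4 control, 88.7-fold apart (SE of the log2 value 0.52, adjusted p = 8.47e-05). It encodes granzyme A, a protease of cytotoxic granules. CD8 control replicate 2 held the least of the 3, and was still above every CD4 control library. Gzmb (chr14:56258838-56262260), whose product granzyme B starts apoptosis in the target cell, was at 306, 236 and 361 CPM in CD8 control against 49.9, 51.3 and 34.3 CPM in CD4 control. The difference was 6.67-fold (adjusted p = 7.2e-05). Prf1 (chr10:61297833-61304680), which encodes the pore-forming perforin, was at 454, 531 and 582 CPM in CD8 control against 59.2, 66.7 and 33.7 CPM in CD4 control, 9.82-fold apart (adjusted p = 5.88e-05). CD4 control cells thus held both transcripts at a lower, measurable level in every library.

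The granzyme genes Gzmm and Gzmk also separated the groups. Gzmm was at 172, 139 and 197 CPM in CD8 control against 9.94, 6.23 and 2.04 CPM in CD4 control (27.9-fold). Gzmk was at 83.6, 77.9 and 136 CPM in CD8 control against 7.14, 17.8 and 4.08 CPM in CD4 control (10.2-fold). Nkg7, which encodes a granule membrane protein needed for release, was 3.91-fold higher in CD8 control, and Ctsd, a lysosomal protease gene, 2.94-fold higher. Crtam, an adhesion receptor of activated cytotoxic cells, was 10.2-fold higher. Other genes of the list went the opposite way. Fasl, the death ligand that kills through Fas, was at 440.4, 365 and 324 CPM in CD4 control against 123, 114 and 144 CPM in CD8 control, 2.97-fold lower in CD8 control (adjusted p = 0.000244). Srgn, which encodes the proteoglycan that packs granule contents, was at 1236, 1439 and 1121 CPM in CD4 control against 416, 460.4 and 507 CPM in CD8 control (2.74-fold). Serpinb9, an inhibitor of granzyme B, was 2.50-fold higher in CD4 control, a call lost with CD4 control replicate 1 or 2, or CD8 control replicate 1 or 2 left out (adjusted p = 0.0831 to 0.0835). Gzmc, Gzmd, Gzme, Gzmf, Gzmg and Gzmn did not pass the filter on low counts.

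The RUNX motif is shown here in promoters of cytotoxic genes because Runx3 acts on this lineage's genes. The promoters shown are examples that hold a match, all from genes called higher in CD8 control. Each line gives the 250 bases before the RefSeq transcription start, 5′ to 3′ on the gene's strand (GRCm38.p6). Capitals mark TGTGGT or its reverse complement (RUNX) and, for Gzmb, also TGANTCA (AP-1).
Gzmb (chr14:56262335-56262584, minus strand): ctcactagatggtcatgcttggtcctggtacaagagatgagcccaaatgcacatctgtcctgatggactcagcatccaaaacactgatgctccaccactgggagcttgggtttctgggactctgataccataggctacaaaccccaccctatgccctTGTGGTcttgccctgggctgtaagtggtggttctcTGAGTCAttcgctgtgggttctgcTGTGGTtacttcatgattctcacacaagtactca
Gzma (chr13:113100982-113101231, minus strand): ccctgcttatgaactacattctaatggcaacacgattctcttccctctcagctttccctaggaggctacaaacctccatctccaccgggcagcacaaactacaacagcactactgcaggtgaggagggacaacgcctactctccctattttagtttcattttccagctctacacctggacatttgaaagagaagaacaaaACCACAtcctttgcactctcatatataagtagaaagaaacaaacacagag
Prf1 (chr10:61297586-61297835, plus strand): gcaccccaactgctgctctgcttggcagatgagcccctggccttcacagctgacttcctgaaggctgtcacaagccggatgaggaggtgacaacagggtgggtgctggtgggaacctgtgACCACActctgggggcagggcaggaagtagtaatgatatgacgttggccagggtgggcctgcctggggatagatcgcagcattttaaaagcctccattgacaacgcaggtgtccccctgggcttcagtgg
Klrk1 (chr6:129623865-129624114, minus strand): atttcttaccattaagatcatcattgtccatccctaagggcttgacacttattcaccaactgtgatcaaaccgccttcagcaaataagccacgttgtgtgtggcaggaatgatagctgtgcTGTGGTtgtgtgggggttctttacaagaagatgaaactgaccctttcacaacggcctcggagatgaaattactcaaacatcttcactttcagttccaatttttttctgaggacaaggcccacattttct
The Gzmb window held 2 RUNX matches, which end 29 and 88 bases before the start, with an AP-1 match between them. Over windows from 250 bases before to 50 after the start, 10 of the 21 granule genes with a RefSeq promoter held a RUNX match, as did 15.8% of the 9445 tested genes with a promoter. The 10 include Gzma, Gzmb, Gzmm, Nkg7 and Prf1, higher in CD8 control, but also Srgn and Serpinb9, higher in CD4 control. Of 123 genes with a promoter that were called and at least 4-fold higher in CD8 control, 25.2% held a RUNX match, and of 252 at least 4-fold higher in CD4 control, 13.5%. The AP-1 motif was in 14.6% and 8.73% of those sets and in 6.0% of all promoters. The median GC content was 57.0%, 62.0% and 60.7% in the sets higher in CD8 control, higher in CD4 control and in all. T-box (AGGTGTGA), NBRE (AAAGGTCA), EGR (GCGTGGGCG) and CArG box matches were each in under 3% of the promoters of all tested genes and of both sets at least 4-fold apart. Both strands were searched, a match is a run of letters and not a binding site, and these shares were not tested.

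Receptors of the lectin family and other receptors shared with NK cells formed the list with the largest share of members called higher in CD8 control. Of 28 tested, 15 were called higher in CD8 control and 1, Sh2d2a, which encodes a signalling adaptor, higher in CD4 control, and the median log2 difference was 1.74. Klrg1, an inhibitory receptor that marks terminally differentiated effector cells, was at 163, 177 and 265 CPM in CD8 control against 11.6, 9.66 and 6.06 CPM in CD4 control (22.2-fold, adjusted p = 4.83e-05). Klrk1, which encodes the activating receptor NKG2D, was at 706, 661 and 814 CPM in CD8 control against 55.9, 32.1 and 54.0 CPM in CD4 control (15.4-fold, adjusted p = 2.56e-05). Klrd1 and Klrc1, the chains CD94 and NKG2A of an inhibitory receptor for non-classical class I molecules, differed 10-fold and 3.39-fold. Klrc1 was at 408, 368 and 438 CPM in CD8 control against 150.3, 116 and 92.4 CPM in CD4 control, well above 0 in both. Cd160 was 14.9-fold and Klrb1c (NK1.1) 10.6-fold higher. Klra4, a Ly49 receptor, was at 5.98, 5.77 and 5.0 CPM in CD8 control and had no count in CD4 control. It was at least 92.4-fold higher, computed against 3 counts summed over the group without a count. The Ly49 genes are near-identical copies, so how reads were split among them is uncertain. The adaptor gene Tyrobp, which NK cells use with such receptors, was at 11.8, 21.9 and 17.5 CPM in CD8 control against 16.7, 24.8 and 20.4 CPM in CD4 control, and Ncr1, an NK cell marker, had counts in replicate 2 of CD8 control and in no other of the 6 libraries.

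**Figure D2:**
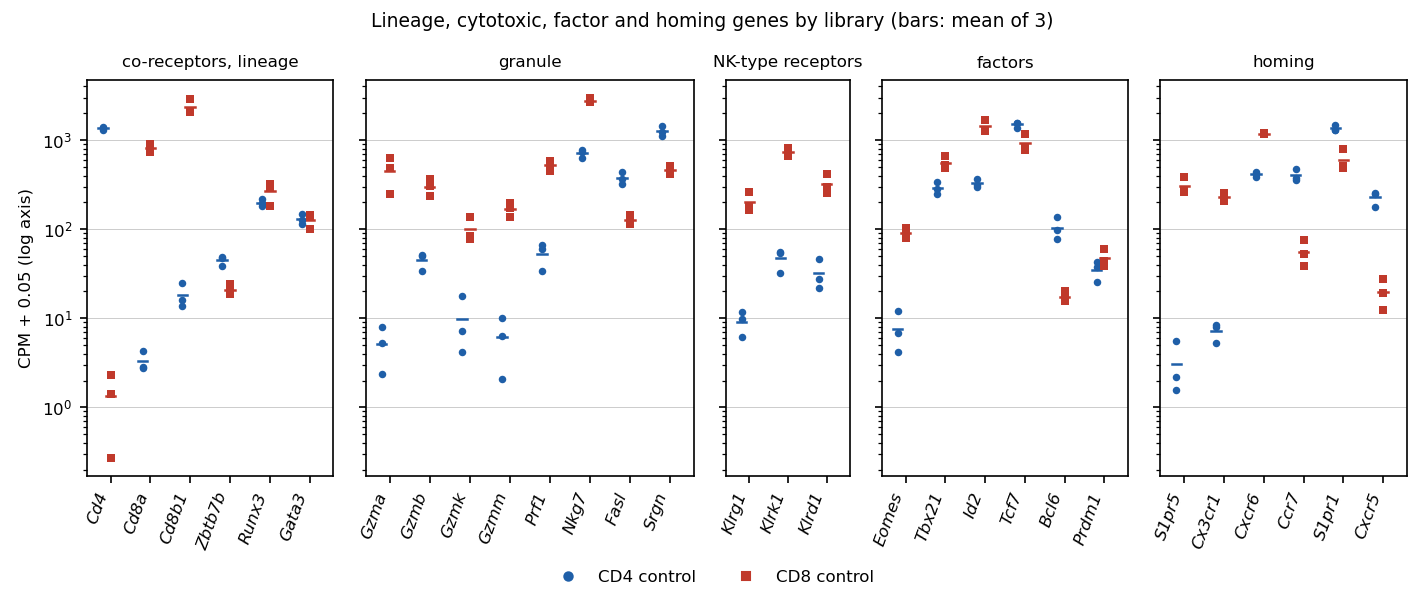
CPM plus 0.05 (log axis) of co-receptor and lineage, granule, NK-type receptor, transcription factor and homing genes in each of the 3 CD4 control (blue circles) and 3 CD8 control libraries (red squares), with bars at the means. Fasl, Srgn, Ccr7, S1pr1 and Cxcr5 are higher in CD4 control, unlike the other granule and homing genes shown, and Runx3, Gata3 and Prdm1 overlap.

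Transcription factors of effector and memory states split between the groups. Of 43 tested, 7 were called higher in CD8 control and 17 higher in CD4 control. The 7 became 3 without CD4 control replicate 1 and 4 without CD4 control replicate 2 or 3 or CD8 control replicate 1 or 3. Eomes, a T-box factor of CD8 memory cells, was at 87.1, 79.4 and 102 CPM in CD8 control against 6.71, 11.9 and 4.14 CPM in CD4 control (11.8-fold, adjusted p = 0.00044). Tbx21, which encodes the related T-bet of cytotoxic and Th1 cells, differed less, with 525, 485 and 667 CPM in CD8 control against 249, 342 and 285 CPM in CD4 control (1.91-fold, adjusted p = 0.00808). Id2, an inhibitor of E proteins that favours effector cells, was at 1314, 1271 and 1678 CPM in CD8 control against 312, 369 and 300.4 CPM in CD4 control (4.35-fold). Its counterpart Id3 was at 2.26, 3.59 and 5.52 CPM in CD8 control against 5.16, 18.5 and 16.0 CPM in CD4 control and was not called (adjusted p = 0.118). Zeb2, a factor of terminal effector cells, was 8.26-fold higher in CD8 control, a call lost with CD4 control replicate 1 left out (adjusted p = 0.0534). Its CD4 control levels, 17.7, 38.5 and 4.95 CPM, spread widely.

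The factors higher in CD4 control included several that T cell receptor (TCR) signals or helper states are known for. Bhlhe40, a factor of cytokine-producing T cells, was at 1374, 1424 and 1296 CPM in CD4 control against 144, 121 and 154 CPM in CD8 control (9.76-fold, adjusted p = 2e-06). Irf4, whose level follows TCR signal strength, was at 135, 121 and 124 CPM in CD4 control against 5.48, 4.12 and 1.58 CPM in CD8 control (34.6-fold). Maf, a factor for Il21 and Il10 expression, was 21.8-fold and Bcl6, the factor of follicular helper cells, 5.96-fold higher. Rora and Nfil3 were 3.81-fold and 6.03-fold higher. Tcf7, which encodes TCF1 of memory and stem-like T cells, was at 1372, 1559 and 1574 CPM in CD4 control against 811, 779 and 1165 CPM in CD8 control (1.64-fold), a call lost with CD4 control replicate 2 or 3, or CD8 control replicate 1 or 2 left out (adjusted p = 0.0652 to 0.0711). Lef1, its close relative, had a log2 difference of -0.06 (95% interval -0.40 to 0.27). Prdm1, which encodes Blimp1, was at 38.7, 60.5 and 43.8 CPM in CD8 control against 25.5, 42.9 and 37.2 CPM in CD4 control, overlapped between the groups and was not called (95% interval -0.09 to 0.97). Zfp683 (Hobit), a factor of tissue-resident cells, was at 9.78, 7.65 and 6.63 CPM in CD8 control against 3.60, 4.29 and 9.03 CPM in CD4 control and was not called.

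Of 23 memory survival genes, 1 (against 5.13% of all genes) was called higher in CD8 control and 7 (against 6.55%) higher in CD4 control. Il7r, the receptor for the survival cytokine interleukin 7, was at 1227, 1243 and 1261 CPM in CD8 control against 1308, 1041 and 976 CPM in CD4 control (95% interval of the log2 difference -0.14 to 0.47). Bcl2, which blocks apoptosis, was at 264, 238 and 213 CPM in CD8 control against 259.6, 225 and 165 CPM in CD4 control (95% interval -0.36 to 0.63), and Il2rb, a chain of the interleukin 2 and 15 receptors, had an interval of -0.53 to 0.28. None of these was called, and the intervals give the differences that these libraries allow. Bcl2l11, which encodes the pro-apoptotic Bim, was at 169.9, 176 and 111 CPM in CD4 control against 49.8, 32.4 and 40.8 CPM in CD8 control (3.71-fold). Bcl2a1d, a gene of the anti-apoptotic A1 family, was 7.68-fold higher in CD4 control too. It has near-identical copies, so its level is uncertain.

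Receptors that set where T cells go differed in both directions, with 7 of 29 called higher in CD8 control and 8 higher in CD4 control. S1pr5, an egress receptor of terminal effector cells, was at 259.6, 277 and 381 CPM in CD8 control against 5.53, 2.11 and 1.51 CPM in CD4 control (101-fold, adjusted p = 0.000197). S1pr1, the receptor most T cells use to leave lymphoid organs, went the other way, at 1289, 1466 and 1304 CPM in CD4 control against 487, 508 and 790.4 CPM in CD8 control (2.27-fold, adjusted p = 0.00315). Cx3cr1, the fractalkine receptor of effector memory cells in blood, was at 228, 206 and 257 CPM in CD8 control against 8.01, 8.34 and 5.24 CPM in CD4 control (32.0-fold). Ccr2 and Cxcr6, receptors for entry into inflamed tissue, were 3.18-fold and 2.84-fold higher in CD8 control. Cxcr3, a receptor of the same kind, had a 95% interval of -0.27 to 0.51 for the log2 difference.

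Ccr7, the chemokine receptor for entry into lymph nodes, was at 357, 470.0 and 377 CPM in CD4 control against 38.5, 53.1 and 76.5 CPM in CD8 control (7.15-fold higher in CD4 control, adjusted p = 0.000395). The groups did not overlap. Cxcr5, for entry into B cell follicles, was at 178, 248 and 258 CPM in CD4 control against 19.2, 27.7 and 12.2 CPM in CD8 control (11.6-fold), Gpr183 (EBI2) was 3.91-fold and P2ry10 8.56-fold higher. Cd69, an early activation antigen that retains cells by blocking S1pr1, was at 1356, 1695 and 1770.0 CPM in CD4 control against 129, 150.4 and 110.5 CPM in CD8 control (12.4-fold). Ccr6 had 0.746, 7.20 and 3.85 CPM in CD4 control and no count in CD8 control.

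Adhesion and surface genes were more often higher in CD8 control. Of 28 tested integrins and adhesion molecules, 10 were called higher in CD8 control and 4 higher in CD4 control. The 4 became 1 without CD4 control replicate 2 and 2 without CD4 control replicate 3 or CD8 control replicate 2. Itgax (CD11c) was at 248, 189 and 207 CPM in CD8 control against 12.5, 14.1 and 15.1 CPM in CD4 control (15.4-fold), and Itgam (CD11b) at 26.5, 33.1 and 39.4 CPM in CD8 control against 0.124, 2.69 and 2.80 CPM in CD4 control (17.5-fold). Both genes also mark myeloid cells, whose other markers are given further on. Amica1 (JAML), which binds epithelial cells, was 16.0-fold higher, Cd48 3.34-fold, St3gal6, a sialyltransferase gene for selectin ligands, 2.60-fold, and Selplg, which encodes the P-selectin ligand, 1.78-fold. Cd44, an antigen of memory cells, was 1.60-fold higher in CD4 control. Itga4 and Itgb7, the chains of the gut homing integrin, had 95% intervals of -0.29 to 0.18 and -0.47 to 0.24.

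Among the Ly6 and other surface genes, 5 of 19 were called higher in CD8 control (3 without CD4 control replicate 1 or 3) and 2 higher in CD4 control. Ly6c2, an antigen of effector memory CD8 cells, was at 2647, 2555 and 2797 CPM in CD8 control against 549, 477 and 343 CPM in CD4 control (5.85-fold). Of 25 annexin, S100 and galectin genes, 9 were called higher in CD8 control (4 without CD4 control replicate 2) and 2 higher in CD4 control (1 without CD4 control replicate 1, 2 or 3 or CD8 control replicate 1 or 3). S100a6 and Lgals1 were 2.15-fold and 3.14-fold higher in CD8 control. Members of the GIMAP family, GTPases of lymphocyte survival, diverged, with 3 of 8 called higher in CD8 control and 1 higher in CD4 control. The 3 became 1 in the fit of the 6 libraries alone, 2 with RLE scaling or no filter, and 5 with library totals alone or by DESeq2. Gimap7 was at 295, 330.5 and 317 CPM in CD8 control against 149, 176 and 129.9 CPM in CD4 control (2.07-fold), while Gimap6 was at 1304, 1429.5 and 1119 CPM in CD8 control against 2135, 2150.0 and 2386 CPM in CD4 control (1.73-fold higher in CD4 control).

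Chemokine and cytokine transcripts also split, and 2 of 12 chemokine genes were called in each direction. Those higher in CD8 control became 1 without CD4 control replicate 2, CD8 control replicate 2 or 3 or CD4 ThpokAD replicate 1 or 2. Those higher in CD4 control became 1 without CD4 control replicate 2 or 3, CD8 control replicate 1 or 3 or CD4 ThpokAD replicate 1 or 3. Ccl5, the chemokine RANTES of effector and memory T cells, was at 12504, 13866 and 7039 CPM in CD8 control against 1875, 1794 and 1570.1 CPM in CD4 control (6.38-fold, adjusted p = 0.000144), and CD8 control replicate 3 held the least of its group. Ccl3 and Ccl4, which activated T cells release, overlapped between the groups and were not called (adjusted p = 0.248 and 0.148). Ifng, the antiviral cytokine of both lineages, was at 162, 229 and 257 CPM in CD4 control against 82.4, 72.7 and 144 CPM in CD8 control (2.16-fold higher in CD4 control, adjusted p = 0.0395). That call was lost with CD4 control replicate 2 or 3, CD8 control replicate 1 or 2, CD4 ThpokAD replicate 1, 2 or 3 left out (adjusted p = 0.0504 to 0.126), and also in the fit of the 6 libraries alone (adjusted p = 0.0579) and with library totals alone (adjusted p = 0.0529). Tnf was at 44.9, 55.8 and 60.8 CPM in CD4 control against 8.57, 3.78 and 14.3 CPM in CD8 control (6.03-fold, adjusted p = 0.00511). Il2 was at 9.32, 5.83 and 4.66 CPM in CD4 control against 0.627, 0.339 and 0.444 CPM in CD8 control (13.9-fold). Il21, which helps B cells and CD8 T cells, was at 18.5, 65.8 and 17.5 CPM in CD4 control and had no count in CD8 control (at least 978-fold lower). Lif had 24.8, 4.92 and 21.9 CPM in CD4 control and no count in CD8 control. In all, 1 of 17 secreted cytokine genes was called higher in CD8 control (against 5.13% of all genes) and 6 higher in CD4 control (against 6.55%). The 1 call was not made when CD4 control replicate 1 or 2 or CD8 control replicate 1 or 3 was left out.

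Follicular helper genes were mostly higher in CD4 control. Of 24 follicular helper genes, 19 were called higher in CD4 control and none higher in CD8 control, in edgeR's test and in DESeq2's Wald test (20 and none). At an unadjusted p under 0.05, 0 were higher in CD8 control. The median log2 difference was -4.17, or -3.96 with genes at or under 3 counts in a group set to their bound or ratio. Tox2, a factor of follicular helper cells, was at 66.5, 80.8 and 70.9 CPM in CD4 control without a count in CD8 control (at least 2069.6-fold lower), and Angptl2 at 81.2, 60.2 and 54.2 CPM, again without a count in CD8 control. Izumo1r (FR4) was at 126, 149 and 185 CPM in CD4 control against 1.92, 0 and 0.345 CPM in CD8 control (206-fold). Il6ra and Il6st, the chains of the interleukin 6 receptor, were 13.5-fold and 8.75-fold higher in CD4 control. Sh2d1a, the SLAM receptor adaptor SAP, had a log2 difference of -0.25 (95% interval -0.68 to 0.17). Of 17 Th1 genes, 6 were called higher in CD8 control and 3 higher in CD4 control. Of 12 Th2 and Th17 genes, 6 were called higher in CD4 control and 0 higher in CD8 control by edgeR or DESeq2, also at an unadjusted p under 0.05.

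TNF family ligands and their receptors are a main means of T cell help. Tnfsf11 (chr14:78277445-78308043), which encodes RANKL, was at 109, 106 and 108 CPM in CD4 control and had no count in the 3 CD8 control libraries. It was at least 3055-fold lower there. Cd40lg, the ligand that licenses B cells and dendritic cells, was at 347, 406 and 432 CPM in CD4 control against 4.26, 0.339 and 9.32 CPM in CD8 control (81.8-fold, adjusted p = 0.00115). Tnfsf8 (CD30L) was at 369, 473 and 460.3 CPM in CD4 control against 38.6, 68.8 and 34.6 CPM in CD8 control (9.19-fold). Among receptors, Tnfrsf4 (OX40) was at 326, 432 and 374 CPM in CD4 control against 0.418, 2.28 and 1.63 CPM in CD8 control (262-fold), and Tnfrsf1b, which encodes TNF receptor 2, was 3.41-fold higher in CD4 control. Of 27 genes, 9 were called higher in CD4 control and 0 higher in CD8 control by edgeR (3 at an unadjusted p under 0.05, 2 by DESeq2's Wald test, and 1 by edgeR without CD4 control replicate 3 or CD8 control replicate 3). Tnfsf14 (LIGHT) was at 48.5, 68.8 and 35.7 CPM in CD8 control against 19.1, 33.0 and 23.2 CPM in CD4 control, without overlap, and was close to a call (adjusted p = 0.0526). A call appeared with CD8 control replicate 3 left out (adjusted p = 0.0387), and also by DESeq2 (adjusted p = 0.0123), with library totals alone (0.0327), bias-adjusted deviances (0.0488), the stricter filter on low counts (0.0474) and the replicate block (0.0458).

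Costimulatory and inhibitory receptors were also mostly higher in CD4 control, 15 of 29 against 2. Icos, for follicular help, was at 1759, 2245 and 1685 CPM in CD4 control against 92.3, 67.1 and 85.5 CPM in CD8 control (23.2-fold). Ctla4, a brake on costimulation, was at 258, 267 and 264 CPM in CD4 control against 6.40, 9.35 and 8.14 CPM in CD8 control (33.0-fold, adjusted p = 2.27e-06). Pdcd1, which encodes PD-1, was at 200.4, 317 and 244 CPM in CD4 control against 23.2, 30.8 and 20.6 CPM in CD8 control (10.2-fold), and Tigit differed 12.2-fold. Lag3, a receptor of exhausted cells, was at 0.502, 0.678 and 0.986 CPM in CD8 control against 0.0621, 0.114 and 0.583 CPM in CD4 control and was not called, nor was Havcr2 (TIM-3). The regulatory T cell list, which holds several of the same genes, had 8 of 17 members higher in CD4 control and 0 higher in CD8 control by edgeR (1 by DESeq2, 1 by edgeR without CD4 control replicate 3 or CD8 control replicate 2, and 2 at an unadjusted p under 0.05). Its factor Foxp3 was at 0, 4.52 and 2.33 CPM in CD4 control against 0.251, 0 and 0.0247 CPM in CD8 control and was not called (adjusted p = 0.0888). A call appeared with CD4 control replicate 1 left out (adjusted p = 0.0262).

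Cytokine receptors and their signalling brakes followed the same direction, with 14 of 37 genes called higher in CD4 control and 3 higher in CD8 control. Socs3, which is induced by cytokines and blocks their receptors, was at 569, 566 and 619 CPM in CD4 control against 37.6, 44.6 and 42.1 CPM in CD8 control (14.1-fold, adjusted p = 1.9e-06). Il4ra, Il21r and Ifngr1 were 4.25-fold, 3.79-fold and 2.73-fold higher in CD4 control. Il18rap, a chain of the interleukin 18 receptor, was at 618, 692 and 566 CPM in CD8 control against 179, 202 and 150.3 CPM in CD4 control (3.53-fold), while its partner Il18r1 was not called (adjusted p = 0.107, 95% interval 0.11 to 0.98).

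The list with the largest share of calls was that of immediate early genes, most of them for transcription factors, which a stimulus switches on within minutes without new protein synthesis. Of 34 tested, 30 were called higher in CD4 control, each at least 2-fold, and 1 higher in CD8 control. The median log2 difference was -3.38. Over the alternatives that left out 1 library, 29 to 32 were called higher in CD4 control. Nr4a1 (chr15:101254269-101274795), which encodes the nuclear receptor Nur77, a reporter of TCR signals, was at 2117, 2434 and 2358 CPM in CD4 control against 1.92, 7.36 and 4.41 CPM in CD8 control (508-fold, adjusted p = 1.02e-05). Nr4a3 was at 372, 463 and 257 CPM in CD4 control against 1.42, 3.29 and 0.567 CPM in CD8 control (219.8-fold). The AP-1 genes followed, with Fos at 301, 323 and 269 CPM in CD4 control against 15.2, 21.5 and 35.5 CPM in CD8 control (12.3-fold) and Junb at 3859, 4179.6 and 5642 CPM in CD4 control against 346, 538 and 457 CPM in CD8 control (10.2-fold). Fosb and Jun were 172-fold and 5.44-fold higher in CD4 control, so single AP-1 genes differed by very different factors. Atf3 was at 68.2, 88.2 and 76.6 CPM in CD4 control, and 2 counts were found in CD8 control, both in replicate 3. Egr1 and Egr2, factors downstream of MAP kinase and calcium signals, were 41.2-fold and 126-fold higher, and Crem, a cyclic AMP responsive factor, 31.4-fold.

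Ier3, an immediate early gene named here after its values were seen, was the 1 called higher in CD8 control. Myc, which drives growth, was at 51.3, 52.4 and 89.2 CPM in CD8 control against 43.1, 54.4 and 54.9 CPM in CD4 control and was not called (95% interval -0.35 to 1.03). The CD4 ThpokAD libraries, sorted with the same GP66 tetramer, were on the side of CD4 control, with Nr4a1 at 1689.9, 2113 and 2317 CPM, Fos at 161, 182 and 187 CPM and Junb at 2506, 3849 and 3607 CPM. Lineage, tetramer class and sort moved together with these levels, and their parts cannot be told apart. Heat shock genes, which encode chaperones, differed less. Of 16 tested, 4 were called higher in CD4 control and 0 higher in CD8 control by edgeR or DESeq2 (1 at an unadjusted p under 0.05, 1 by edgeR without CD4 ThpokAD replicate 3 and 1 in the fit of the 6 libraries alone). Hspa1a was at 81.4, 78.8 and 52.7 CPM in CD4 control against 17.0, 14.1 and 3.35 CPM in CD8 control (6.21-fold), while Hspa8, the constitutive form, had a 95% interval of -0.39 to 0.46 and Dnajb1 one of -0.20 to 0.40.

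**Figure D3:**
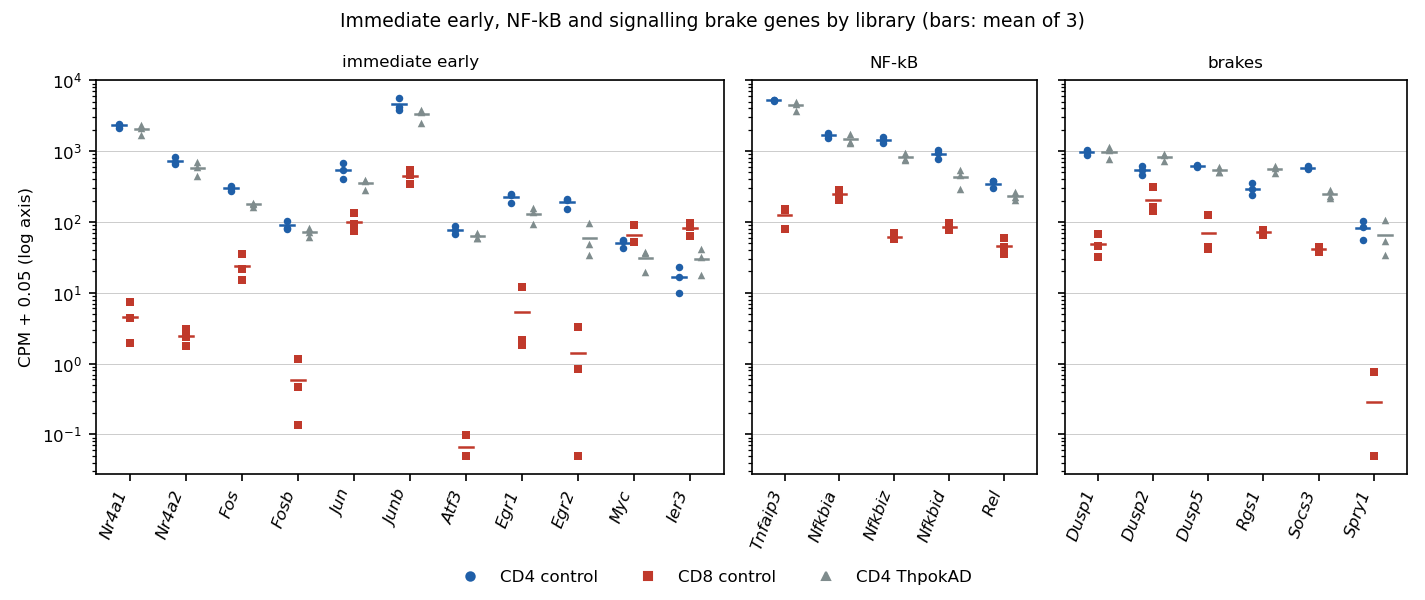
CPM plus 0.05 (log axis) of immediate early, NF-kB and signalling brake genes in each library of CD4 control (blue circles), CD8 control (red squares) and CD4 ThpokAD (grey triangles), with bars at the means of 3. Apart from Myc and Ier3, each gene is lower in the 3 CD8 control libraries than in the 3 CD4 control and 3 CD4 ThpokAD libraries.

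NF-kB genes showed the same direction, with 17 of 20 called higher in CD4 control and 0 higher in CD8 control by edgeR or DESeq2, also at an unadjusted p under 0.05. These counts are not separate from those of related lists. Rel and Nfkbid are also in the immediate early list, and Tnfaip3 and Nfkbie also in the signalling brake list. Tnfaip3 (chr10:19000910-19015657), which encodes the inhibitor A20 and is itself an NF-kB target, was at 5113, 5204 and 5337 CPM in CD4 control against 78.6, 150.2 and 146 CPM in CD8 control (41.7-fold, adjusted p = 7.27e-06). Nfkbiz, an atypical inhibitor, was at 1316, 1594 and 1424 CPM in CD4 control against 56.6, 69.4 and 57.0 CPM in CD8 control, and Nfkbid, another, was 10.7-fold higher in CD4 control. Nfkbia, the classical inhibitor, was 6.81-fold and the subunit gene Rel 7.53-fold higher in CD4 control. Birc3, a target that blocks apoptosis, was 4.59-fold higher.

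Signalling brakes, which many of the same stimuli induce, had 18 of 33 members higher in CD4 control and 2 higher in CD8 control. Dusp1, a phosphatase of MAP kinases, was at 868, 1051 and 999 CPM in CD4 control against 32.4, 68.3 and 45.0 CPM in CD8 control (20-fold, adjusted p = 3.17e-05). Dusp5 was at 608, 635 and 596 CPM in CD4 control against 44.4, 41.6 and 126 CPM in CD8 control, with CD8 control replicate 3 above the other CD8 control libraries. The cyclic AMP phosphodiesterase genes Pde4d and Pde4b were 9.45-fold and 3.25-fold higher in CD4 control, and Rgs1, which dampens chemokine receptors, 4.08-fold. Genes of the TCR pathway itself differed less, with a median of -0.14. Of 35, 3 were called higher in CD8 control (against 5.13% of all genes) and 7 higher in CD4 control (against 6.55%). The 3 became 0 without CD4 control replicate 2 and 1 without CD4 control replicate 1 or 3 or CD8 control replicate 3, and the 7 became 4 without CD8 control replicate 2. Orai1, the pore of the calcium channel opened by TCR signals, was at 369, 456 and 409 CPM in CD4 control against 57.0, 40.5 and 60.7 CPM in CD8 control (7.79-fold). Nfatc1, a calcium-dependent factor, was 2.24-fold and Bcl10, a link from the receptor to NF-kB, 2.26-fold higher in CD4 control.

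The cyclic AMP response element (CRE, TGACGTCA) is shown in the promoters of a brake gene and of the immediate early gene Btg2. Both are given as the 250 bases before the RefSeq start, 5′ to 3′ (GRCm38.p6), with the CRE in capitals. Btg2 was named after its values were seen, and its levels are not given here.
Dusp1 (chr17:26508473-26508722, minus strand): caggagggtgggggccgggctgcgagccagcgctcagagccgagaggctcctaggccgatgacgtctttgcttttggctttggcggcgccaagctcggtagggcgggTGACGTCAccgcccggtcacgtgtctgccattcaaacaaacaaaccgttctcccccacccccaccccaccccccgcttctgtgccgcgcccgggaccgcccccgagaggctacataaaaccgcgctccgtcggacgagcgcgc
Btg2 (chr1:134079156-134079405, minus strand): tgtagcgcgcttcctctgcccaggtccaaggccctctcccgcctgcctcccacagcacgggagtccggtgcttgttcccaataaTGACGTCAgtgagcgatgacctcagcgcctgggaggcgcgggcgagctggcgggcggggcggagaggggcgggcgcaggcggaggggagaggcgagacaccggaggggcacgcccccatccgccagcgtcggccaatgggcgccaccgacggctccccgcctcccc
A CRE was in 18 of the 252 promoters of genes at least 4-fold higher in CD4 control (7.14%), in 0 of the 123 of genes at least 4-fold higher in CD8 control and in 3.68% of all 9445. Of the 26 immediate early genes with a promoter, 3 held one (Btg2, Maff and Nfkbid). Of the 28 signalling brake genes with a promoter, 1 held one, the Dusp1 shown here. The exact letters were not in these windows of Fos, Junb, Nr4a1 or Atf3, which says nothing of other sites. No test was made of these shares.

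Interferon stimulated genes went both ways, with 6 of 37 higher in CD8 control and 5 higher in CD4 control. Irgm1, a GTPase of cell-intrinsic defence, was at 155, 187 and 164 CPM in CD8 control against 68.0, 50.4 and 71.9 CPM in CD4 control, and Gbp7, another, was 2.68-fold higher in CD8 control. Isg15, a ubiquitin-like modifier, was at 48.2, 50.1 and 55.1 CPM in CD4 control against 12.2, 14.5 and 20 CPM in CD8 control (3.28-fold higher in CD4 control), and Usp18, which removes it from proteins, was 2.50-fold higher in CD8 control.

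Metabolic genes were described by list. Of all tested genes, 5.13% were called higher in CD8 control and 6.55% higher in CD4 control. For glycolysis, respiratory chain and fatty acid oxidation genes, the calls higher in CD8 control by edgeR were near that share. Of 20 glycolysis genes, 1 was called in each direction by edgeR, and by DESeq2 1 was higher in CD8 control and 5 higher in CD4 control. Slc2a3, the glucose transporter GLUT3, was at 240.1, 267 and 196 CPM in CD8 control against 90.5, 72.8 and 87.8 CPM in CD4 control (2.80-fold), and Ldha and Pkm had 95% intervals of -0.61 to 0.05 and -0.53 to -0.05 and were not called. The call higher in CD4 control was not made when CD4 control replicate 1 or 2 or CD8 control replicate 3 was left out, and 2 genes were called without CD8 control replicate 1 or 2. Of 26 genes of lipid synthesis, 5 were higher in CD4 control (3 without CD8 control replicate 2) and 0 higher in CD8 control by edgeR or DESeq2 (1 at an unadjusted p under 0.05). Among them were the sterol genes Insig1, at 123, 124 and 143 CPM in CD4 control against 19.7, 37.8 and 9.79 CPM in CD8 control (5.80-fold), and Cyp51 (4.66-fold). Of 40 nuclear genes of the respiratory chain, 2 were higher in CD8 control (1 when any library other than CD4 ThpokAD replicate 2 was left out, 5 by DESeq2, 5 with library totals alone and 11 at an unadjusted p under 0.05) and 0 higher in CD4 control by edgeR or DESeq2, also at an unadjusted p under 0.05. Of 21 fatty acid oxidation genes, 1 was higher in CD8 control (0 without CD4 control replicate 3 or CD8 control replicate 1 or 3, 3 by DESeq2, 3 with library totals alone and 8 at an unadjusted p under 0.05) and 0 higher in CD4 control (2 by DESeq2 and 2 at an unadjusted p under 0.05). The 2 calls of 13 mitochondrially encoded genes, both higher in CD4 control, were not made when any 1 CD4 control library, or CD4 ThpokAD replicate 1 or 2, was left out. They became 1 without CD8 control replicate 1 or 2 or CD4 ThpokAD replicate 3 and 6 by DESeq2, and the share of mitochondrial counts was lowest in CD8 control replicate 3.

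Cell cycle genes gave few calls. Of 36 cell cycle genes, 1 was called in each direction, against 5.13% of all genes higher in CD8 control and 6.55% higher in CD4 control. Both calls were lost without CD4 control replicate 2, and the 1 higher in CD4 control also without CD4 control replicate 1 or CD8 control replicate 3. Without CD8 control replicate 1, 4 were called higher in CD4 control, and 2 were called higher in CD8 control without CD4 control replicate 3 or CD8 control replicate 2. Mki67, a marker of cycling cells, was at 22.5, 46.1 and 29.3 CPM in CD4 control against 28.6, 0 and 3.08 CPM in CD8 control, with most of the CD8 control counts in replicate 1. A call appeared with CD8 control replicate 1 left out (adjusted p = 0.0394). In the CD4 ThpokAD libraries it was at 296, 171 and 218 CPM.

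**Figure D4:**
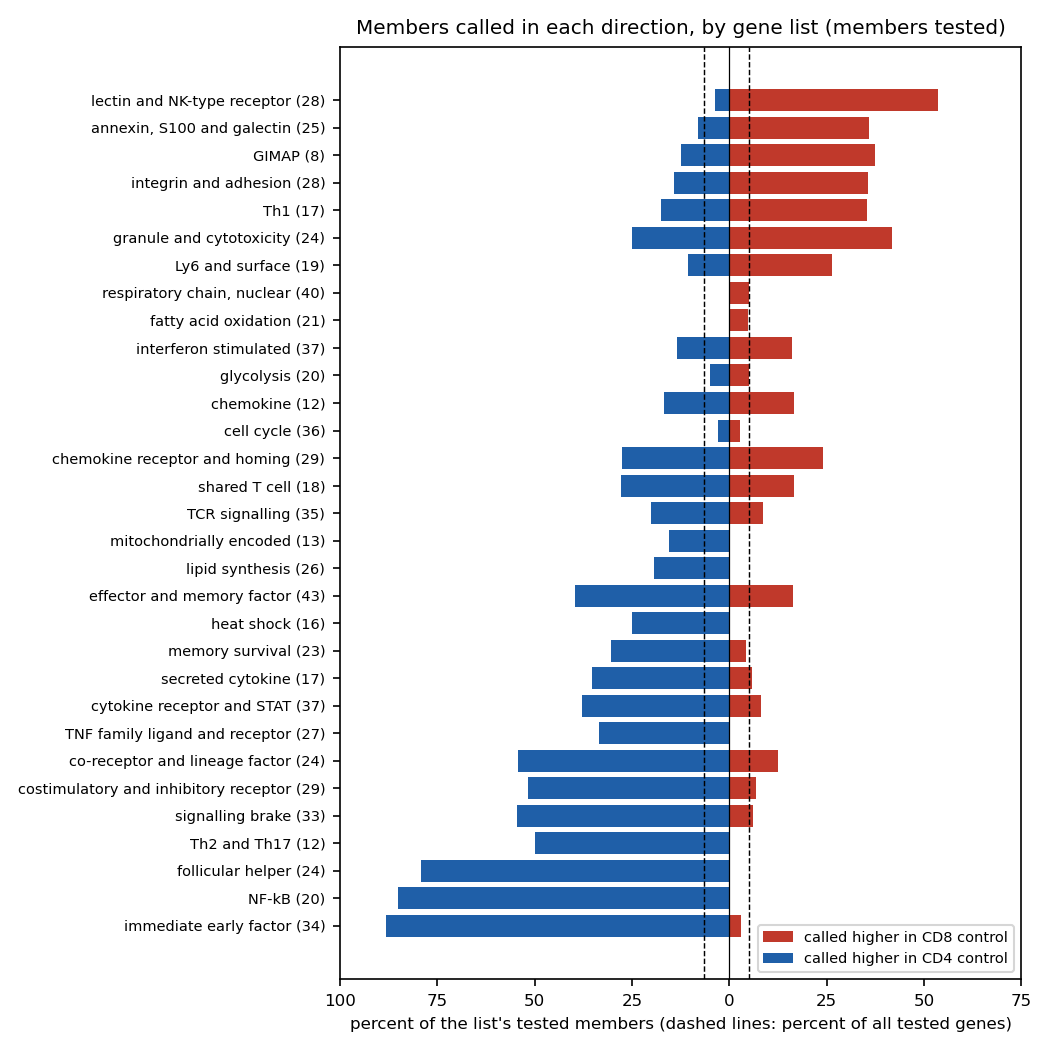
Percent of a gene list's tested members called higher in CD8 control (red, to the right) or in CD4 control (blue, to the left), with the number tested in brackets and dashed lines at 5.13% and 6.55%, the percentages of all tested genes. Lists of cell type markers, with that of regulatory T cells, and of sex-linked genes are not shown. Receptors shared with NK cells, 15 of 28, reach farthest to the right, and immediate early genes, 30 of 34, farthest to the left.

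The genes with the widest differences outside these lists were often at 0 in the other group. Ramp3, which modifies receptors for calcitonin family peptides, was at 288, 172 and 186 CPM in CD4 control and had no count in CD8 control (at least 6056-fold lower). Nav2 and B4galnt4 were at 26.5 ± 4.29 and 22.4 ± 1.89 CPM in CD4 control, also without a count in CD8 control. Ptgs2 (COX-2), an inducible enzyme of prostaglandin synthesis, had 3.54, 19.3 and 9.09 CPM in CD4 control and no count in CD8 control. In the other direction, Ret, a receptor tyrosine kinase gene known from the nervous system, was at 23.2, 12.9 and 16.0 CPM in CD8 control and had no count in CD4 control (at least 293-fold higher). Adamts14, Pald1 and Plekha6 were at 15.2 ± 2.63, 16.6 ± 6.99 and 12.3 ± 4.35 CPM in CD8 control, again with no count in CD4 control. Adamts14 (chr10:61197112-61273438) and Pald1 (chr10:61319656-61383530) lie on either side of Prf1, so they are not independent of it by position. Kcnj8, a potassium channel gene, was at 139.9, 106 and 180.5 CPM in CD8 control against 0.87, 0.0572 and 2.86 CPM in CD4 control (112-fold). Adgrg5, an adhesion receptor gene, differed 72.8-fold, and As3mt, a methyltransferase gene, 20.6-fold. Of the calls, 27 genes higher in CD8 control had no count in CD4 control and 66 higher in CD4 control had none in CD8 control.

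The TCR variable segments encode only a part of the receptor surface that meets the peptide and the MHC molecule. Both tetramers select cells by the whole receptor. The segments named are those with a mean share of at least 4% in either group, chosen after their values were seen, and shares are of all Trbv or Trav counts of a library. Calls for segments come from the test over all genes, on whole-library counts, and do not test the shares. Trbv31 made up 32.3%, 20.3% and 23.6% of the Trbv counts in CD4 control and 1.78%, 0.708% and 0.683% in CD8 control (adjusted p in the test over all genes = 3.54e-05). Trbv13-3 had the highest mean share in CD4 control, with 25.7%, 32.2% and 41.3% (below Trbv31 in replicate 1), and made up 11.3%, 21.3% and 12% in CD8 control. Both segments were called higher in CD4 control, as were Trbv13-2 and Trbv12-2. Trbv19, Trbv16 and Trbv1 were called higher in CD8 control, where their mean shares were 8.30%, 7.77% and 5.90%, against 2.64%, 0.877% and 0.496% in CD4 control. Trbv29 made up 15.5%, 14.9% and 18.5% there and 6.10%, 7.015% and 4.84% in CD4 control, and Trbv13-1 16.0%, 9.48% and 15.1% there and 5.02%, 5.02% and 2.29% in CD4 control. Neither of these, nor Trbv17 or Trbv14, was called. Of 21 tested Trbv segments, 3 were called higher in CD8 control and 5 higher in CD4 control.

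In the alpha chain, 3 segments of the Trav14 family made up most of the counts in CD4 control. Trav14d-3-dv8 made up 37.2%, 33.9% and 27.8% of the Trav counts there and under 0.2% in each CD8 control library. Trav14n-3 made up 22.4%, 19.6% and 28.5% in CD4 control and 2.84%, 0.764% and 1.33% in CD8 control. Trav14-3 made up 13.4%, 13.9% and 11.5% in CD4 control and 3.16%, 4.60% and 5.75% in CD8 control. In the test over all genes, which does not test the shares, these 3 were called higher in CD4 control. Trav14-1 was called higher in CD8 control, with 17.0%, 9.60% and 3.87% there and under 1% in each CD4 control library. Trav13-1 made up 3.19%, 1.57% and 32.0% in CD8 control and 1.53%, 1.34% and 9.79% in CD4 control, so replicate 3 held the most in both groups, and it was not called. Trav3-3, Trav16n and Trav14-2 were not called either. Trav segments of one family are near-identical copies, and how the counting split their reads is uncertain. The 6 libraries held 10421 to 24744 Trbv counts and 4395 to 12358 Trav counts.

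**Figure D5:**
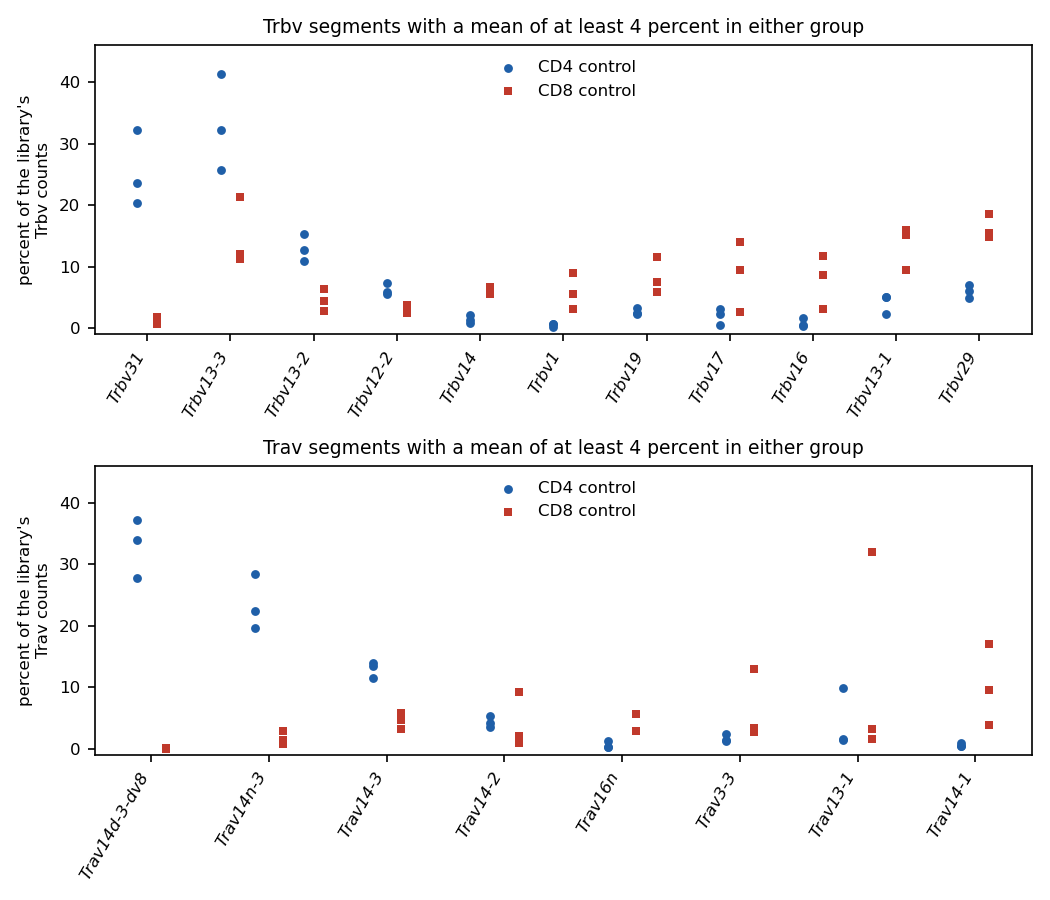
Percent of a library's Trbv counts (upper panel) or Trav counts (lower panel) in each variable segment with a mean share of at least 4% in either group, for the 3 CD4 control (blue circles) and 3 CD8 control libraries (red squares). Trbv31, Trav14d-3-dv8 and Trav14n-3 are high in the 3 CD4 control libraries and low in the 3 CD8 control libraries, and Trav13-1 is high in CD8 control replicate 3.

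Markers of other cells were measured in both groups. The counts of calls stand beside 5.13% of all genes higher in CD8 control and 6.55% higher in CD4 control. In bulk libraries, fewer cells of a type and less RNA per cell cannot be told apart. The summed level of 15 B cell markers was 659 to 1283 CPM in CD4 control and 269 to 1155 CPM in CD8 control, and in that list 1 gene was called in each direction, which became 0 higher in CD8 control without CD4 control replicate 1 or 3, CD8 control replicate 1, 2 or 3 or CD4 ThpokAD replicate 2, and 0 higher in CD4 control without CD4 control replicate 3 or CD8 control replicate 2 (2 without CD8 control replicate 3). The 19 tested myeloid markers summed to 444 to 714 CPM in CD4 control and 357 to 579.6 CPM in CD8 control, and Csf1r was at 24.2, 54.3 and 73.1 CPM in CD4 control against 20.7, 49.8 and 20.3 CPM in CD8 control. With Itgam, 1 of them was called higher in CD8 control and 1, Ctss, higher in CD4 control (2 without CD8 control replicate 1 or by DESeq2). The 14 dendritic cell and MHC class II genes summed to 944 to 1687 CPM in CD4 control and 548 to 643 CPM in CD8 control, 4 were called higher in CD4 control and 1, Itgax, higher in CD8 control. H2-Ab1, a class II gene, was at 151, 382 and 199.8 CPM in CD4 control against 59.8, 60.9 and 47.8 CPM in CD8 control, and Cd74, the invariant chain, at 462, 764 and 519 CPM in CD4 control against 145, 218 and 129 CPM in CD8 control. CD4 control replicate 2 held the most of both. Clec9a, which marks cross-presenting dendritic cells, was at 0, 5.96 and 0 CPM in CD8 control against 0, 2.69 and 0.583 CPM in CD4 control. Plasma cell genes followed single libraries, with Jchain at 0, 286 and 102 CPM in CD8 control against 1.37, 53.2 and 38.0 CPM in CD4 control. Of 8 plasma cell markers, 1 was called higher in CD4 control. Of 13 NK cell markers, many of them also genes of effector CD8 cells, 6 were called higher in CD8 control and 1 higher in CD4 control, the latter lost without any 1 library other than CD4 ThpokAD replicate 3, and they summed to 4192 to 4528 CPM in CD8 control and 1441 to 1860 CPM in CD4 control. Of 7 erythroid, 4 platelet and 6 gamma-delta and NKT cell markers, 0 were called by edgeR, and DESeq2 called 2, 0 and 1. At an unadjusted p under 0.05 there were 2, 1 and 1. The part of these cells in the differences was not tested.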

How the data were processed

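RNA of sorted spleen T cells was amplified with the SMARTer Ultra Low Input kit and sequenced in pairs after Nextera XT library preparation, per the labels' protocols. This kit marks no strand, so reads of overlapping and antisense genes cannot be told apart. The authors deposited raw counts per gene. Per the submitters' processing notes, the build was mm10 and the tools included STAR, HTSeq, Trimmomatic, bcl2fastq 2.17 and DESeq2, with no order or settings. Counts were tested as deposited with edgeR 4.0.16 (R 4.3.3). The steps were filterByExpr (minimum count 10, minimum total 15), TMM scaling and a quasi-likelihood fit of all 9 libraries, which share 1 estimate of the spread. The contrast was CD8 control minus CD4 control, with Benjamini-Hochberg adjustment over 15738 genes and calls at 0.05. Intervals cover 95%. The script was tested on simulated data.

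Where a group had no count, its floor was set at 3 counts over its libraries together, which covers counting error only. Named genes were the defining members of each list, up to 5 called members per list with the smallest adjusted p, and the 20 widest differences per direction at a mean of at least 10 CPM without overlap, without pseudogenes, predicted genes or receptor segments. Members and lists were chosen with earlier results of these data known. Gene positions are from GENCODE M21, which held 15215 (96.7%) of the tested symbols, and promoters from RefSeq (GRCm38.p6), with 9445 (60.0%). Of 48663 named entries, 26449 had a count. Replicates differed by more than sampling noise. Alternatives were other scalings, filters and fits, DESeq2 1.42.0, limma-voom (limma 3.58.1), the replicate block and leaving out each library. Results for some genes are not reported here.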

Additional observations from a re-analysis of the deposited data

How the results depend on the processing

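No call changed sign under any alternative. With bias-adjusted deviances, which the main fit did not use, edgeR called 1049 genes higher in CD8 control and 1362 higher in CD4 control. DESeq2's Wald test called 1313 genes higher in CD8 control and 1664 higher in CD4 control. By list, it called 7 integrin and adhesion, 10 secreted cytokine and 5 chemokine genes higher in CD4 control, and 10 interferon stimulated and 4 costimulatory genes higher in CD8 control, more than 1.5 times edgeR's counts. Leaving out 1 library at a time gave 421 to 707 and 637 to 960 calls. For differences of at least 2-fold this gave 339 to 490 and 536 to 723 calls, and a test against a 2-fold threshold (glmTreat) called 127 and 316. Of the 1839 calls, 881 (320 higher in CD8 control and 561 higher in CD4 control) were made whichever library was left out. With the replicate block, 621 and 840 genes were called, 432 and 653 of them at least 2-fold. Deviations of same-numbered libraries from their group means had correlations of 0.0228, 0.00541 and 0.0598, and those of differently numbered libraries -0.0493 to 0.0225. The labels do not say whether the numbers pair the samples. With 3 libraries per group, these small values cannot decide it. Of 287 named genes, 209 were called, 167 of these in every fit without 1 library, and DESeq2 called all 209. Depth limits the genes near 0 counts, for which only bounds are given. The causes of these shifts were not tested.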
